A study of Mus musculus with 26 samples.

Results

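The effect of a Uty gene trap that is shared by sham-operated and castrated mice was examined in 26 libraries of cardiac left ventricle. All libraries entered one model with a genotype term and a surgery term and no interaction, so the genotype term (gene trap minus wild type) is an average over both surgeries. Of 47642 genes with counts, 45794 lie on autosomes or the X chromosome, and 12257 of these passed the filter on low counts and form the set described here. The choice of genes used no measured difference between the genotypes.

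Gene-trap mice carried the UtyGt(XS0378)Wtsi allele, an insertion in intron 4 of Uty, and wild-type mice came from the same isogenic strain, C57BL/6.Y<129P2>. Both genotypes therefore carry a Y chromosome from 129P2 on a C57BL/6 background. The males were operated at about 10 days of age and their ventricles were taken at 40 days. The groups were gene-trap sham (n = 6), wild-type sham (n = 6), gene-trap castrated (n = 7) and wild-type castrated (n = 7), which gives 13 gene-trap and 13 wild-type libraries. Libraries of a group are labelled as separate samples, with no word on which animals they came from. The p-values here thus rest on the spread between samples, which may be technical in part. The allele is 1 insertion, and every cell that would transcribe Uty carries it.

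Uty is a Y-linked gene, and its X homologue Kdm6a encodes a demethylase that removes methyl groups from lysine 27 of histone H3; the protein made from Uty has little of that activity and is thought to act on transcription mainly in other ways. It belongs to a small set of Y genes with X partners that are transcribed in most tissues, the heart included, and that regulate transcription, splicing and translation. Castration removes the main source of androgen, so a genotype effect shared by both surgeries is one seen with and without the testes.

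Counts came from 3′ end tag libraries, in which a tag marks the end of a polyadenylated transcript. Gene counts per library were 6357485 to 9399241, and levels below are in CPM, library-size scaled counts with TMM composition factors. Of the wild-type sham libraries, replicates 1 to 5 stood apart on the first principal component (35.6% of the variance), with scores of -78.2 to -33.6 against -25.95 to 37.3 in the other 21. Gene-trap castrated replicates 1 to 4 stood apart on the second (10.4%), with -39.7 to -28.1 against -11.9 to 19.5. These 4 gene-trap castrated libraries had 45.9% to 46.8% of reads without a unique alignment, against 42.4% to 43.4% in gene-trap castrated replicates 5 to 7. Results are therefore given with and without these sets. Without wild-type sham replicates 1 to 5, replicate 6 alone remains in that group, and the genotype term then rests mostly on castrated libraries. The 10 ventricular cardiomyocyte markers were all measured and summed to 49160 to 117100 CPM per library, whereas 6 atrial markers summed to 187 to 709 CPM. Of 8 lymphocyte markers, 1 passed the filter.

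The trapped gene checked the labels. Uty was at 0 to 1.07 CPM, median 0.43, in gene-trap libraries and at 6.57 to 11.8 CPM, median 7.62, in wild-type libraries, with no overlap. Its log2 fold change was -3.94 (SE 0.247, edgeR quasi-likelihood test with Benjamini-Hochberg adjustment, adjusted p = 2.2e-12). A count of 0 allows up to 0.312 to 0.481 CPM by counting error alone, depending on the library. Ddx3y, the neighbouring Y-linked RNA helicase gene, was at 6.01 to 32.3 CPM in gene-trap and 87.0 to 115 CPM in wild-type libraries (log2 fold change -2.72, SE 0.189). Kdm5d, a Y-linked H3K4 demethylase gene, was lower (-0.68, SE 0.199, edgeR adjusted p = 0.0324), and Eif2s3y, a translation initiation factor gene, was higher (1.51, SE 0.216). None of the Y-linked genes is counted below. An effect of the lack of Uty and an effect of the changed levels of its Y-linked neighbours cannot be told apart.

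With all libraries the genotype term called many genes, most with small differences, and the count depended on the libraries kept, as given below. Of the 12257 genes, 896 (7.31%) were called at an adjusted p under 0.05 (edgeR, Benjamini-Hochberg). Of these, 375 (3.06%) were higher and 521 (4.25%) lower in gene-trap ventricles. The median log2 fold change was 0.41 among the higher and -0.49 among the lower genes, against a median absolute value of 0.16 over all genes tested, and 7 higher and 17 lower genes differed by more than 1 log2 unit. Autosomal genes were called in 7.27% of cases and X genes in 8.66%.

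The shared calls did not draw evenly on the surgeries. All 375 higher and 520 of 521 lower genes had the same sign in sham and in castrated libraries, and 171 and 253 of them reached an unadjusted p under 0.05 in both. Calling genes on a term averaged over the same libraries favours equal signs, so this agreement is no separate evidence of a shared effect. The sham difference was the larger one for 267 higher and 401 lower genes. Without wild-type sham replicates 1 to 5, 178 genes were called, 110 of them among the 896. Without gene-trap castrated replicates 1 to 4 the count was 3038, with 794 shared, and without both sets it was 158 (1.19%), with 106 shared. The sham libraries alone gave 3026 calls and the castrated libraries alone 20 (0.171%). In the plot of sham against castrated effects the called genes fill the quadrants of equal sign, as the choice on an averaged term favours.

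**Figure D1:**
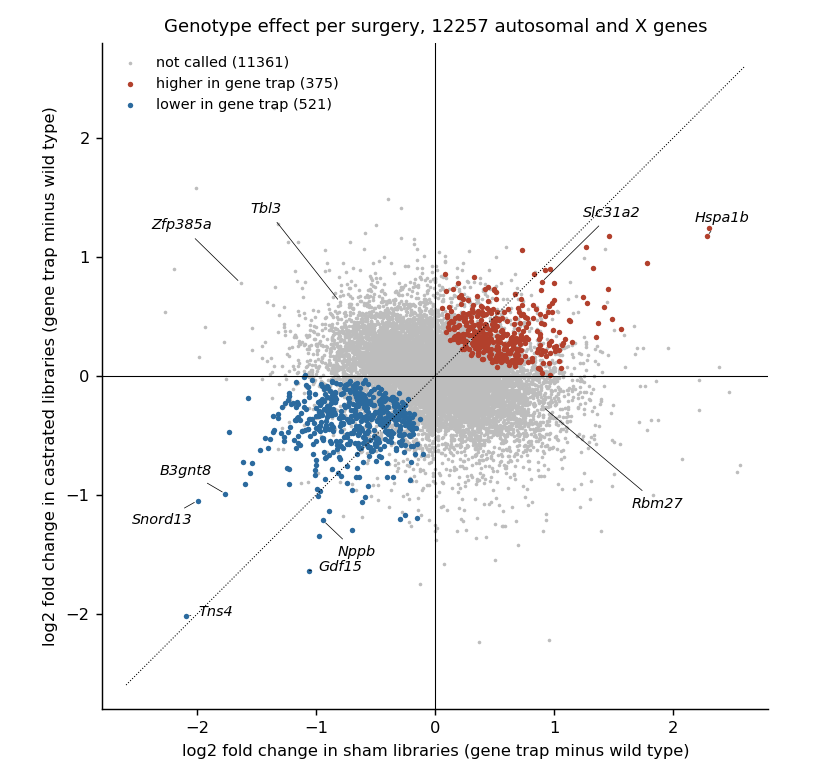
Each point is 1 of 12257 autosomal and X genes, with its log2 fold change (gene trap minus wild type) in sham libraries on the x axis and in castrated libraries on the y axis; 3 genes lie outside the axes. The 375 genes called higher (red) and the 521 called lower (blue) lie at equal signs, with 1 exception among the lower ones. The choice on a term averaged over both surgeries favours this, and the dotted line marks equal effects.

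Spg20 had the smallest p of all autosomal and X genes and was the only one of the 12257 (0.00816%) whose genotypes did not overlap in either surgery. Spg20 (ENSMUSG00000036580; chromosome 3, 55112108 to 55137322, plus strand, GRCm38) encodes spartin, a protein of endosomes and lipid droplets. It was at 26.4 to 31.5 CPM, median 29.7, in gene-trap sham and 36.2 to 53.2 CPM, median 45.6, in wild-type sham ventricles. In castrated mice it was at 26.4 to 33.3 CPM, median 29.0, in gene-trap and 33.7 to 42.1 CPM, median 39.5, in wild-type ventricles. All 13 gene-trap libraries lay below all 13 wild-type libraries. The log2 fold change was -0.49 (SE 0.0718, edgeR adjusted p = 0.000355), and it was -0.50 without both sets of libraries.

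The other leading decreases included enzymes that build glycans and kinases of growth signalling. B3gnt8, which extends poly-N-acetyllactosamine chains, was at 2.15 to 4.81 CPM in gene-trap sham against 8.85 to 17.2 CPM in wild-type sham ventricles. In castrated mice it was at 2.41 to 4.74 CPM in gene-trap and 3.14 to 14.5 CPM in wild-type ventricles. The genotypes were separate in sham and overlapped in castrated libraries, and the log2 fold change was -1.36 (SE 0.207, edgeR adjusted p = 0.000541). St6galnac6, a sialyltransferase gene, showed the same arrangement, with 11.9 to 21.3 CPM over all gene-trap and 15.8 to 44.5 CPM over all wild-type libraries (-0.73, SE 0.116).

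Pim3 encodes a serine/threonine kinase that promotes cell survival and growth. Its levels were 121 to 239 CPM, median 167, in gene-trap sham and 190 to 313 CPM, median 231, in wild-type sham ventricles. In castrated mice they were 106 to 144 CPM, median 126, in gene-trap and 176 to 253 CPM, median 194, in wild-type ventricles. Here the genotypes overlapped in sham and were separate in castrated libraries. The log2 fold change was -0.61 (SE 0.0995, edgeR adjusted p = 0.000622), and it was called in sham alone and in castrated alone. Akt2, the Akt isoform that carries much of the insulin signal in muscle and heart, was at 121 to 296 CPM in gene-trap and 162 to 644 CPM in wild-type libraries (log2 fold change -0.87, SE 0.140). Akt2 was not among the genes called in every setting with sets of libraries left out.

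Gdf15 and Tns4 were low-level genes with large relative differences. Gdf15, a circulating cytokine induced by cell stress, was at 0.925 to 4.67 CPM, median 2.08, in gene-trap and 2.33 to 11.2 CPM, median 5.85, in wild-type libraries. The ranges overlapped in both surgeries, and the log2 fold change was -1.36 (SE 0.236, edgeR adjusted p = 0.000984). Tns4, an adhesion-site adaptor gene, was at 0 to 0.724 CPM in gene-trap and 0.276 to 3.08 CPM in wild-type libraries, so that many of its values lie near the level that a count of 0 allows. The small nucleolar RNA Snord13, which guides a modification of ribosomal RNA, was at 1.72 to 6.23 CPM in gene-trap and 3.29 to 24.0 CPM in wild-type libraries (-1.49, SE 0.241). Such RNAs mostly lack a poly(A) tail, and what its tags represent was not tested.

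The remaining leading decreases by p were Chtf8 (-1.11), Neurl1b (-0.85), Arf5 (-0.84), Ptrf (-0.80) and Sae1 (-0.78). Chtf8 belongs to an alternative clamp loader of replication, Neurl1b is a ubiquitin ligase of Notch ligands, and Arf5 is a small GTPase of the Golgi. Ptrf encodes cavin-1, which shapes caveolae, and Sae1 a subunit of the SUMO-activating enzyme. All 5 overlapped between the genotypes in castrated libraries.

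**Figure D2:**
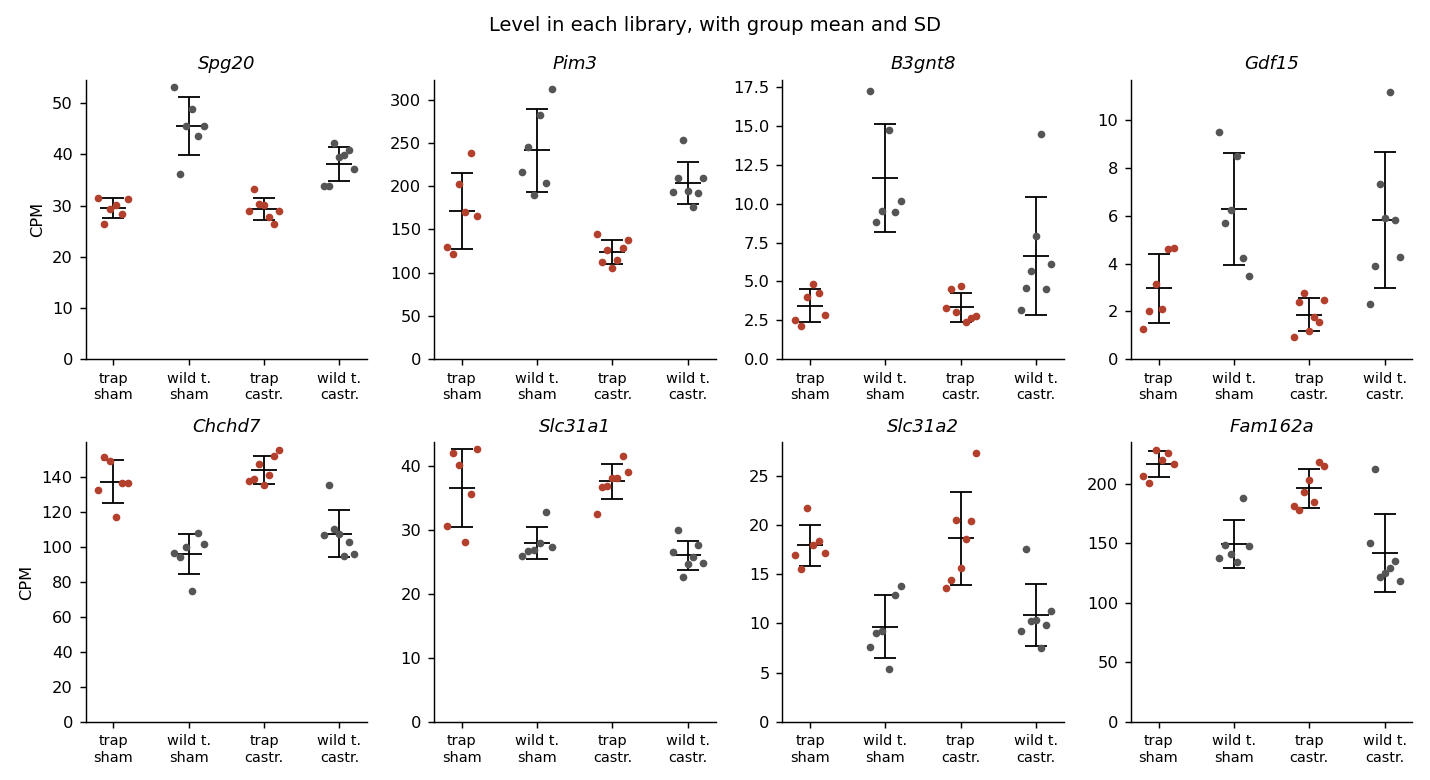
Level (CPM, linear axes from 0) in each of the 26 libraries, gene-trap in red and wild-type in grey, for sham (left pair) and castrated (right pair) mice; bars give the group mean and SD. Spg20 at 26.4 to 33.3 CPM in gene-trap libraries lies below every wild-type library, while single wild-type castrated libraries reach the gene-trap range for Chchd7, Slc31a2 and Fam162a.

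Among the leading increases, several encode small mitochondrial proteins. Chchd7 (chromosome 4, 3938888 to 3951046, plus strand, GRCm38), whose product is a cysteine-rich protein of the intermembrane space, was at 117 to 151 CPM, median 137, in gene-trap sham and 74.6 to 108 CPM, median 98.0, in wild-type sham ventricles. In castrated mice it was at 135 to 156 CPM, median 141, in gene-trap and 94.98 to 136 CPM, median 107, in wild-type ventricles. The genotypes were separate in sham, and in castrated mice 1 wild-type library, replicate 2, reached the gene-trap range. The log2 fold change was 0.47 (SE 0.0697, edgeR adjusted p = 0.000426).

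Aurkaip1, Slirp, Fam162a and Mrpl51 rose with it. Aurkaip1 encodes a protein of the small mitochondrial ribosomal subunit (0.46, SE 0.0742), Mrpl51 one of the large subunit (0.65, SE 0.115) and Slirp a protein that stabilises mitochondrial mRNAs (0.51, SE 0.0952). In sham and castrated libraries the effects were 0.40 and 0.51 for Aurkaip1, 0.89 and 0.44 for Mrpl51, and 0.72 and 0.34 for Slirp. Neither Mrpl51 (edgeR adjusted p = 0.0898) nor Slirp (edgeR adjusted p = 0.112) passed the threshold in castrated libraries. Fam162a, a mitochondrial protein gene induced by hypoxia, was at 201 to 229 CPM in gene-trap sham and 134 to 188 CPM in wild-type sham ventricles. In castrated mice Fam162a was at 178 to 219 CPM in gene-trap and 119 to 213 CPM in wild-type ventricles, and the log2 fold change was 0.50 (SE 0.0815). Fabp5, a fatty acid-binding protein gene, was at 42.9 to 89.3 CPM, median 64.5, in gene-trap and 26.6 to 58.02 CPM, median 41.9, in wild-type libraries (0.68, SE 0.114, edgeR adjusted p = 0.000817).

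Wild-type castrated replicate 2 set how many genes were separate. Without it, 13 genes (0.106%) had no overlap in either surgery, among them Chchd7, Aurkaip1, Fam162a, Mrpl51, Mrpl13, Mrpl18, Slc31a2, Psma3 and Spg20. The other 4, chosen after their values were seen, were Oxct1, an enzyme of ketone body use, Nfu1, an iron-sulphur cluster carrier, Chchd3, a scaffold of mitochondrial cristae, and Tomm7, a subunit of the outer membrane import pore. Without wild-type castrated replicate 1 the number was 11 (0.0897%), 10 of them other genes such as Neurl1b, Sae1 and Psmd2. With CPM that carry no composition factor, 5 genes (0.0408%) were separate, Spg20 not among them.

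Both members of the Ctr copper transporter family rose, and they are near neighbours on chromosome 4. Slc31a1 (ENSMUSG00000066150, 62360727 to 62391769, plus strand, GRCm38) encodes the copper importer of the plasma membrane. Slc31a2 (62262562 to 62298411, plus strand) encodes a related protein of endosomes and lysosomes. Slc31a1 was at 28.2 to 42.7 CPM, median 37.9, in gene-trap sham and 25.9 to 32.8 CPM, median 27.1, in wild-type sham ventricles. In castrated mice it was at 32.5 to 41.7 CPM, median 38.2, in gene-trap and 22.7 to 29.95 CPM, median 25.8, in wild-type ventricles. The genotypes overlapped in sham and were separate in castrated libraries, and the log2 fold change was 0.47 (SE 0.0757, edgeR adjusted p = 0.000622).

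Slc31a2 was at 15.5 to 21.7 CPM, median 17.6, in gene-trap sham and 5.35 to 13.8 CPM, median 9.10, in wild-type sham ventricles. In castrated mice it was at 13.6 to 27.3 CPM, median 18.6, in gene-trap and 7.54 to 17.6 CPM, median 10.2, in wild-type ventricles. Here the sham libraries were separate and the castrated ones overlapped (log2 fold change 0.84, SE 0.137). Both genes were called in each setting with sets of libraries left out, at 0.56 for Slc31a1 and 0.85 for Slc31a2 without both sets. Of the 16 copper and metallothionein genes tested, these were the only 2 called (12.5%, with 7.31% over all genes).

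The genes around the pair did not pass the test. Fkbp15 lies between them on the minus strand, and its start falls within the Slc31a1 promoter window printed below. It was at 7.72 to 13.96 CPM in gene-trap and 7.70 to 17.1 CPM in wild-type libraries, and the log2 fold change was -0.05 (SE 0.119, edgeR adjusted p = 0.836), with a sign that changed under 5 alternatives. Cdc26, on the minus strand, overlaps the end of Slc31a1 (0.09, SE 0.212) and its sign changed under 4 alternatives; no source used here states whether counting used strand, and tags of the overlap may be shared. Prpf4, which follows, did not pass either (0.07, SE 0.123). The promoter windows of the transporter genes are printed to set the pair side by side, from RefSeq on GRCm38.p6, plus strand, each 250 bases before to 50 after an annotated start. The Slc31a1 window is chr4:62360451-62360750, with its GGGCGG matches in capitals, and the Slc31a2 window is chr4:62286179-62286478, with its match to TGCNCNC in capitals.
Slc31a1: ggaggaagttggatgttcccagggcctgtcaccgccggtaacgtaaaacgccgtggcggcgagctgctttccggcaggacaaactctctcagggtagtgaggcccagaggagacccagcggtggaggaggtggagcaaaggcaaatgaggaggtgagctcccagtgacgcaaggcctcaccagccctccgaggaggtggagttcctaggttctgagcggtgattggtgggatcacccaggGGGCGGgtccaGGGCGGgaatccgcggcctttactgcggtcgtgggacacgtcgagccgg
Slc31a2: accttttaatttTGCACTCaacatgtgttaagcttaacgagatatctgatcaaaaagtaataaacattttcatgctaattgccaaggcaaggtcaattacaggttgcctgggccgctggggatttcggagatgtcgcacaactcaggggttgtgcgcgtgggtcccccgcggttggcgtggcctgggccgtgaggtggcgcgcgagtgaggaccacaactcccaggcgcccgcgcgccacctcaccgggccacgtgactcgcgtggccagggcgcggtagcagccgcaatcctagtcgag

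The windows shared neither motif. GGGCGG, the GC box bound by Sp1, was matched at bases 241 to 246 and 252 to 257 of the Slc31a1 window and nowhere in the other. TGCNCNC, the core of the metal response element, was matched at bases 13 to 19 of the Slc31a2 window and nowhere in that of Slc31a1. Both were searched on both strands, and 65.2% and 60.4% of the 9306 windows of tested genes hold them. Of the 287 windows of genes called higher, 26.8% held the ETS motif CCGGAAG, against 18.4% of all windows. Among windows of genes called lower the share was also 18.4%. TGACGTCA, the CRE motif, was held by 6.62% of windows of genes called higher, 1.69% of those called lower and 3.37% of all. Other motifs were searched too, and none of these differences was tested.

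Of the genes for cytosolic ribosomal proteins that were called for the shared term, all but 1 rose. Ribosomal proteins are the structural parts of the ribosome and are made in balanced amounts. Of 78 measured, 29 rose, 1 fell and 48 did not pass (38.5% called), where 3.06% of all genes rose, and the list median was 0.26 against 0.01 over all genes. Rps16 was at 111 to 171 CPM in gene-trap and 54.9 to 131 CPM in wild-type libraries (0.52, SE 0.0997, edgeR adjusted p = 0.00245). Rpl28 was at 128 to 187 CPM in gene-trap and 82.0 to 171 CPM in wild-type libraries (0.48, SE 0.0947). Rpl35a (0.76, SE 0.154) and Rps3a1 (0.47, SE 0.0957) rose as well, and Rps14 was the 1 that fell (-0.61, SE 0.147).

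The ribosomal protein list had the larger median in castrated mice. It was 0.08 in sham and 0.35 in castrated libraries. Without wild-type sham replicates 1 to 5, 24 rose and 0 fell by edgeR (0.757% and 0.564% of all genes), while 3 were lower at an unadjusted p under 0.05 with all libraries. Without both sets 10 rose and 0 fell (0.914% and 0.279%), with a median of 0.18. Without gene-trap castrated replicates 1 to 4, 25 rose and 4 fell, with a median of 0.11, where 10.6% of all genes rose and 13.4% fell. In sham libraries alone 16 rose and 11 fell, where 11.9% of all genes rose and 14.3% fell. DESeq2 called 35 higher and 1 lower, where 9.89% of all genes were called, 4.08% higher and 5.81% lower. Limma voom called 31 higher and 2 lower, where 7.6% of all genes were higher and 7.52% lower. The share of reads without a unique alignment was 45.9% to 46.8% in gene-trap castrated replicates 1 to 4 and 41.9% to 45.9% in all other libraries. Ribosomal protein genes have many near-identical pseudogene copies, so single values are uncertain. The part of that share in the result was not tested.

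Genes for mitochondrial ribosomal proteins, parts of the ribosome that translates the mitochondrial genome, gave only increases for the shared term and calls in both directions in other sets of libraries. Of 78 measured, 10 rose (12.8%, where 3.06% of all genes rose) and 68 did not pass; by edgeR 0 fell, with 6 lower at an unadjusted p under 0.05, 1 lower by DESeq2 and 4 by limma voom. In sham libraries alone 12 of 76 rose and 12 fell, where 11.9% of all genes rose and 14.3% fell. Without gene-trap castrated replicates 1 to 4, 15 rose and 7 fell, where 10.6% of all genes rose and 13.4% fell. The list median was -0.06 in sham and 0.21 in castrated libraries, so their signs were opposite, and 0.09 without both sets. The interaction was called for 27 of the 78 genes, and for 20.1% of all genes. Mrpl13 was at 98.6 to 112 CPM in gene-trap sham and 75.3 to 94.3 CPM in wild-type sham ventricles. In castrated mice Mrpl13 was at 87.0 to 120.0 CPM in gene-trap and 63.1 to 88.9 CPM in wild-type ventricles, and the log2 fold change was 0.38 (SE 0.0714, edgeR adjusted p = 0.00209). Mrpl18 (0.35, SE 0.0676) and Mrps22 (0.54, SE 0.104) were called with it in all settings without sets of libraries. Malsu1, an assembly factor of the large mitochondrial subunit that was singled out after its values were seen, rose by 0.43 (SE 0.0959).

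Nuclear genes of oxidative phosphorylation gave more increases than decreases for the shared term, and none was called without both sets of libraries. Of 75 measured, 13 rose, 1 fell and 61 did not pass (18.7% called, where 7.31% of all genes were called and 3.06% rose), and the list median was 0.11. In sham libraries alone 10 of 74 rose and 20 fell, where 11.9% of all genes rose and 14.3% fell. Without gene-trap castrated replicates 1 to 4, 19 rose and 14 fell, where 10.6% of all genes rose and 13.4% fell. Atp5j, a subunit of ATP synthase, was at 770.4 to 1832 CPM in gene-trap and 316 to 1385 CPM in wild-type libraries (0.65, SE 0.146, edgeR adjusted p = 0.00652). Cox5b of complex IV (0.35, SE 0.0842) and Uqcrfs1 (0.60, SE 0.148) and Uqcrc2 (0.26, SE 0.0639) of complex III also rose. Ndufa12 of complex I was the 1 that fell (-0.44, SE 0.122). The list median was -0.05 in sham and 0.28 in castrated libraries, so the medians of the surgeries had opposite signs. The interaction was called for 38 of the 75 genes, and for 20.1% of all genes. None of the 75 was called in every setting without sets of libraries.

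Some chaperone genes rose and others, 2 small heat shock proteins of muscle among them, fell. In the list of 36 genes for heat shock proteins and the unfolded protein response, 9 rose, 3 fell and 24 did not pass (33.3% called, where 7.31% of all genes were called). Hspa1b, an inducible Hsp70 gene, was at 1.72 to 16.4 CPM in gene-trap and 0.25 to 5.33 CPM in wild-type libraries (1.65, SE 0.375, edgeR adjusted p = 0.00794). Its near-identical neighbour Hspa1a rose by 1.32 (SE 0.333), and tags of the 2 genes may not be told apart. Dnajb1, the co-chaperone that stimulates Hsp70, was at 40.6 to 101 CPM in gene-trap and 26.8 to 57.4 CPM in wild-type libraries (0.61, SE 0.145, edgeR adjusted p = 0.0106). Hsp90aa1 (0.46, SE 0.134) and Hspa4 (0.44, SE 0.141) rose too, and Hspb8 (-0.76, SE 0.157), Hspb7 (-0.61, SE 0.145) and Hyou1 (-0.33, SE 0.104) were the 3 that fell. The list median was 0.32 in sham and -0.10 in castrated libraries, so their signs were opposite. The median of the list was 0.16 without both sets and -0.05 without wild-type sham replicates 1 to 5.

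Hspe1 and Hspd1, which encode the co-chaperonin and the chaperonin of the mitochondrial matrix, start from opposite strands of one short stretch, and both rose. Hspe1 was at 91.5 to 194 CPM, median 150.2, in gene-trap and 83.0 to 139 CPM, median 99.5, in wild-type libraries (0.49, SE 0.109, edgeR adjusted p = 0.00620). Hspd1, whose annotated start on the minus strand (55088243) lies beyond the end of the window printed here, rose by 0.30 (SE 0.0791). Among the called chaperone genes that have a window, only that of Hspe1 held the heat shock element searched (alternating units, either strand), which 0.408% of all windows and 0.697% of those of genes called higher hold. The window around the start of Hspe1 is shown for these matches: RefSeq on GRCm38.p6, chr1:55087898-55088197, plus strand, with 2 overlapping matches, at bases 162 to 174 and 167 to 179, in capitals.
Hspe1: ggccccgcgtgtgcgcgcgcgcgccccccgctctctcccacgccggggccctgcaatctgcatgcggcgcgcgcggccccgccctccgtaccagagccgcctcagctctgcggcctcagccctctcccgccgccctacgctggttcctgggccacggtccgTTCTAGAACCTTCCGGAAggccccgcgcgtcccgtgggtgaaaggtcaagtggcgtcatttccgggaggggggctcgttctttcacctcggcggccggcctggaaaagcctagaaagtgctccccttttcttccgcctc

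The proteasome, which degrades ubiquitin-tagged proteins, changed in both directions. Of 32 constitutive subunits and partners 5 rose and 5 fell (31.2% called, where 3.06% of all genes rose and 4.25% fell), with a median of 0.09. Without both sets 1 rose and none fell by edgeR. Psma3, a subunit of the core particle, was at 58.6 to 73.3 CPM in gene-trap and 22.8 to 65.1 CPM in wild-type libraries (0.57, SE 0.101, edgeR adjusted p = 0.00121). The core subunit gene Psma4 (0.60) and the cap genes Psmd6 (0.45), Psmd12 (0.31) and Adrm1 (0.45) rose with it. The cap genes Psmd13 (-0.81), Psmd4 (-0.49), Psmd2 (-0.28) and Psmd3 (-0.33) and the ATPase gene Psmc1 (-0.59) fell. Psma3 was the 1 member called in every setting without sets of libraries.

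More genes of Akt, Pim and mTOR signalling fell than rose. These kinases couple insulin and growth factors to protein synthesis and glucose uptake. Of 30 genes 6 fell, 1 rose and 23 did not pass (23.3% called), where 4.25% of all genes fell, and the list median was -0.07. Besides Akt2 and Pim3, Mlst8, a subunit of both mTOR complexes, was at 18.1 to 41.9 CPM in gene-trap and 21.2 to 55.6 CPM in wild-type libraries (-0.58, SE 0.127, edgeR adjusted p = 0.00585). Pik3r1, Gsk3b and Foxo4 fell by 0.28, 0.29 and 0.34 on the log2 scale. Mtor itself was higher, at 33.2 to 48.8 CPM in gene-trap against 29.2 to 52.1 CPM in wild-type libraries (0.35, SE 0.0872, edgeR adjusted p = 0.0139). Without both sets 2 fell and none of the 30 rose by edgeR, and Pim3 alone was called in every such setting.

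Among genes of fuel use, calls were counted against 7.31% over all genes (3.06% higher, 4.25% lower). Of 23 genes for glucose uptake, glycolysis and glycogen 3 fell and 1 rose (17.4%), and without both sets 1 fell: Slc2a4, the insulin-responsive glucose transporter gene, was lower (-0.29, SE 0.0737), as were Pygb (-0.62, SE 0.143) and Gys1 (-0.39, SE 0.0951) of glycogen metabolism, and Slc2a1, the basal glucose transporter gene, was higher (0.50, SE 0.121). Of 40 fatty acid genes 3 fell (7.5%, near the share over all genes), Acads, Fabp3 and Plin5, and 0 rose by edgeR, with 2 higher at an unadjusted p under 0.05. Fabp3, the main fatty acid-binding protein gene of heart muscle, was at 3396 to 8124 CPM in gene-trap and 3617 to 11290 CPM in wild-type libraries (-0.51, SE 0.114, edgeR adjusted p = 0.00624). The pyruvate carrier gene Mpc2 (0.37, SE 0.103) and the lactate dehydrogenase gene Ldha (0.31) were the 2 called of 16 pyruvate genes. Txnip, which restrains glucose uptake, was at 246 to 652 CPM in gene-trap and 189 to 1439 CPM in wild-type libraries (-0.75, SE 0.217, edgeR adjusted p = 0.0318). Its effect was -0.25 (SE 0.300) in sham and -1.17 (SE 0.281) in castrated libraries. That of Ldha was 0.09 (SE 0.121) in sham and 0.49 (SE 0.112) in castrated libraries. The interaction was called for neither (edgeR adjusted p = 0.105 for Txnip and 0.0818 for Ldha).

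The X homologue of Uty acts in histone methylation, and genes of that process were called in both directions. Of 26 genes of the H3K27 and H3K4 machinery 1 rose and 2 fell (11.5%, where 7.31% of all genes were called): the H3K27 methyltransferase gene Ezh2 was higher (0.47, SE 0.131), and its relative Ezh1 (-0.38, SE 0.102) and the H3K4 methyltransferase gene Setd1a (-0.33, SE 0.104) were lower. In sham and castrated libraries the effects were 0.68 and 0.30 for Ezh2, -0.63 and -0.16 for Ezh1, and -0.47 and -0.20 for Setd1a. None of them reached an unadjusted p under 0.05 in castrated libraries (edgeR). The list median was 0.18 in sham and -0.16 in castrated libraries. Without wild-type sham replicates 1 to 5 the median was -0.15, and without both sets it was -0.05. None of the 8 X homologues of Y genes was called by edgeR for the shared term, 2 were higher at an unadjusted p under 0.05, and DESeq2 and limma voom each called 1 higher. Sham libraries alone called 2 of them higher by edgeR (11.9% of all genes), and the libraries without gene-trap castrated replicates 1 to 4 called 1 higher (10.6%). Kdm6a, the homologue of Uty, was at 5.40 to 9.91 CPM in gene-trap and 3.90 to 11.1 CPM in wild-type libraries (-0.15, SE 0.144, edgeR adjusted p = 0.581; its sign was opposite in the sham libraries alone). Ddx3x, the partner of Ddx3y, was at 159 to 222 CPM in gene-trap and 143 to 187 CPM in wild-type libraries and just missed the threshold (0.21, SE 0.0687, edgeR adjusted p = 0.0538).

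Androgen-responsive, interferon and Hippo genes held no call by edgeR for the shared term with all libraries. Of 16 androgen-responsive genes, 1 was higher and 2 lower at an unadjusted p under 0.05; DESeq2 called 0 and limma voom 1 higher. Of 37 interferon genes, 6 were higher and 5 lower at that level; DESeq2 called 1 higher and 1 lower, and limma voom 2 higher. Of 21 Hippo genes, 3 were lower at that level, and neither other tool called any. In sham libraries alone edgeR called 15 of 36 interferon genes higher and 1 lower, where 11.9% of all genes were higher and 14.3% lower. In those libraries it called 2 of 19 Hippo genes higher and 1 lower, and 1 of 16 androgen-responsive genes higher and 2 lower. Without gene-trap castrated replicates 1 to 4 it called 7 interferon genes higher and 1 lower (10.6% and 13.4% of all genes). In that fit it also called 1 Hippo gene higher and 1 lower, and 2 androgen-responsive genes lower. Without wild-type sham replicates 1 to 5 it called 2 interferon genes lower, and with the GC trend removed 1 Hippo gene lower. Among stress genes of the myocardium, Fhl1, a LIM protein gene of the sarcomere, was higher (0.46, SE 0.0963), and Nppb, which encodes the B-type natriuretic peptide, was lower (-1.09, SE 0.321, edgeR adjusted p = 0.0342). Nppb was at 4.83 to 18.3 CPM in gene-trap and 5.65 to 98.1 CPM in wild-type libraries, where 1 wild-type castrated library held the highest value.

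**Figure D3:**
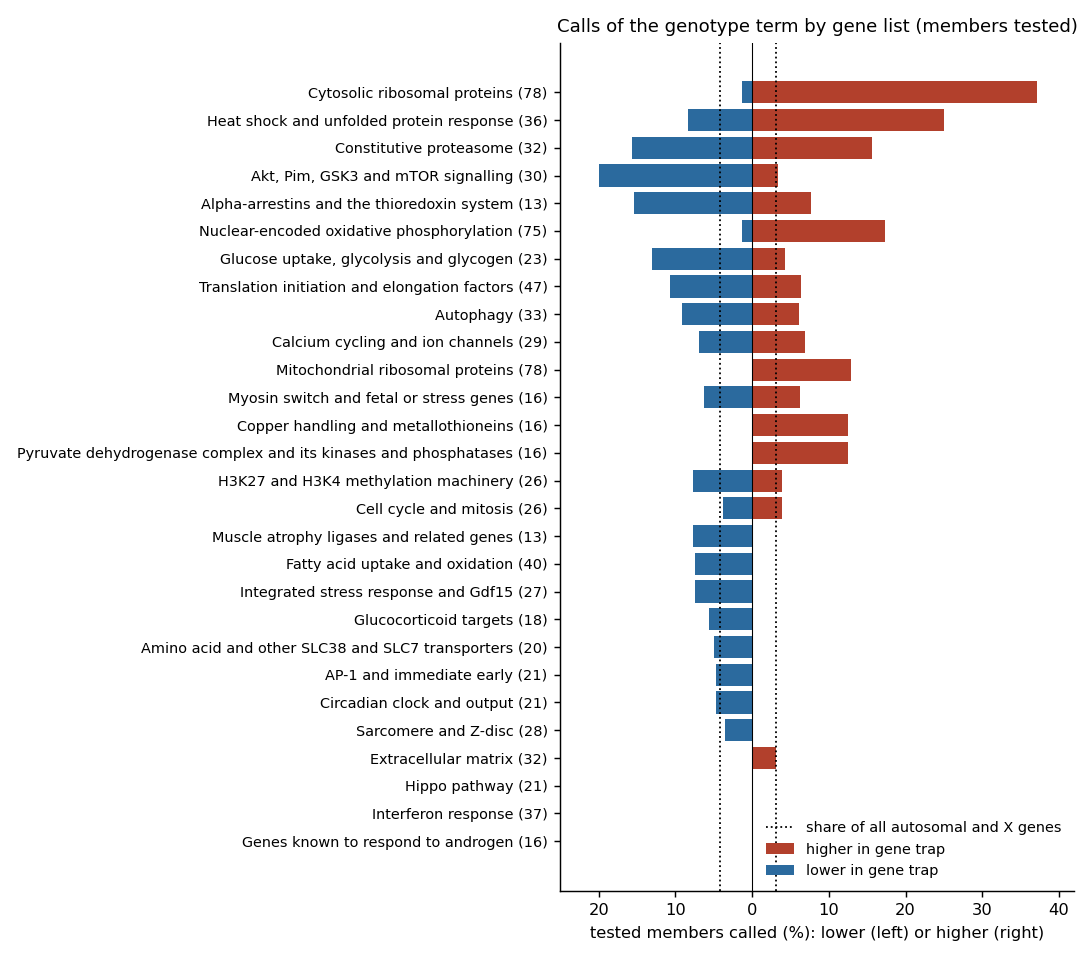
Share of the tested members (number in brackets) of each gene list with at least 13 members tested, cell type markers left out, that were called lower (blue, left) or higher (red, right) in gene-trap ventricles; dotted lines mark 4.25% and 3.06%, the shares over all autosomal and X genes. Cytosolic ribosomal proteins hold the longest bar, and 3 of the lists shown hold no call.

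Among markers of other cell types, Egfl7 (-0.59, SE 0.125) and Pecam1 (-0.42, SE 0.101) fell among 9 endothelial markers. This was 22.2% called, where 7.31% of all genes were called, and 4 of the 9 had a log2 fold change above 0. The endothelial sum was 1848 to 2608 CPM in gene-trap sham and 1312 to 1903 CPM in wild-type sham ventricles, and 1240 to 3016 CPM in gene-trap castrated and 1819 to 2914 CPM in wild-type castrated ventricles, so its direction differed between the surgeries. C1qa fell among 9 macrophage markers (11.1% called), of which 4 had a log2 fold change above 0. The macrophage list median was -0.01. The macrophage sum was 361 to 543 CPM in gene-trap sham and 422 to 668 CPM in wild-type sham ventricles. In castrated mice it was 286 to 462.5 CPM in gene-trap and 336 to 672 CPM in wild-type ventricles. The sums of the genotypes thus overlapped in both surgeries. Chosen after its values were seen, Clec7a, a receptor of myeloid cells, was at 1.42 to 3.85 CPM in gene-trap and 2.003 to 8.09 CPM in wild-type libraries (-0.97, SE 0.179, edgeR adjusted p = 0.00168). In whole tissue, a difference in the number of cells of a type and one in RNA per cell cannot be told apart.

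A set of 35 genes (0.286% of those tested) was called with all libraries and in each of the 3 fits without sets of libraries; it was chosen after these values were seen, and its stability across those fits is a condition of the choice. All 35 were also called without each single library, which held for 537 of the 896. Of the 35, 25 rose and 10 fell, with absolute log2 fold changes of 0.32 to 1.49. The sham libraries alone called 27 of them and the castrated libraries alone 5. The cytosolic ribosomal list held 4 (Rpl21, Rpl28, Rpl35a and Rpl41), the mitochondrial ribosomal list 3, the copper list 2, and the heat shock, proteasome and Akt lists 1 each.

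The rest of the 35 covered several processes. Tcp1, a subunit of the chaperonin that folds actin and tubulin, was at 94.4 to 137 CPM in gene-trap and 70.2 to 116 CPM in wild-type libraries (0.36, SE 0.0787). Trak1, an adaptor that moves mitochondria along microtubules (0.40), Pck2, which makes phosphoenolpyruvate in mitochondria (0.42), and Anapc13 of the anaphase-promoting complex (0.46) rose. Rhoa, a small GTPase of the actin cytoskeleton, was at 85.8 to 141 CPM in gene-trap and 96.3 to 211 CPM in wild-type libraries (-0.55, SE 0.0945, edgeR adjusted p = 0.000965). Arpc3 of the actin-nucleating Arp2/3 complex (-0.63), the nuclear envelope gene Emd (-0.45) and Nampt, which makes the NAD precursor (-0.37), fell.

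**Figure D4:**
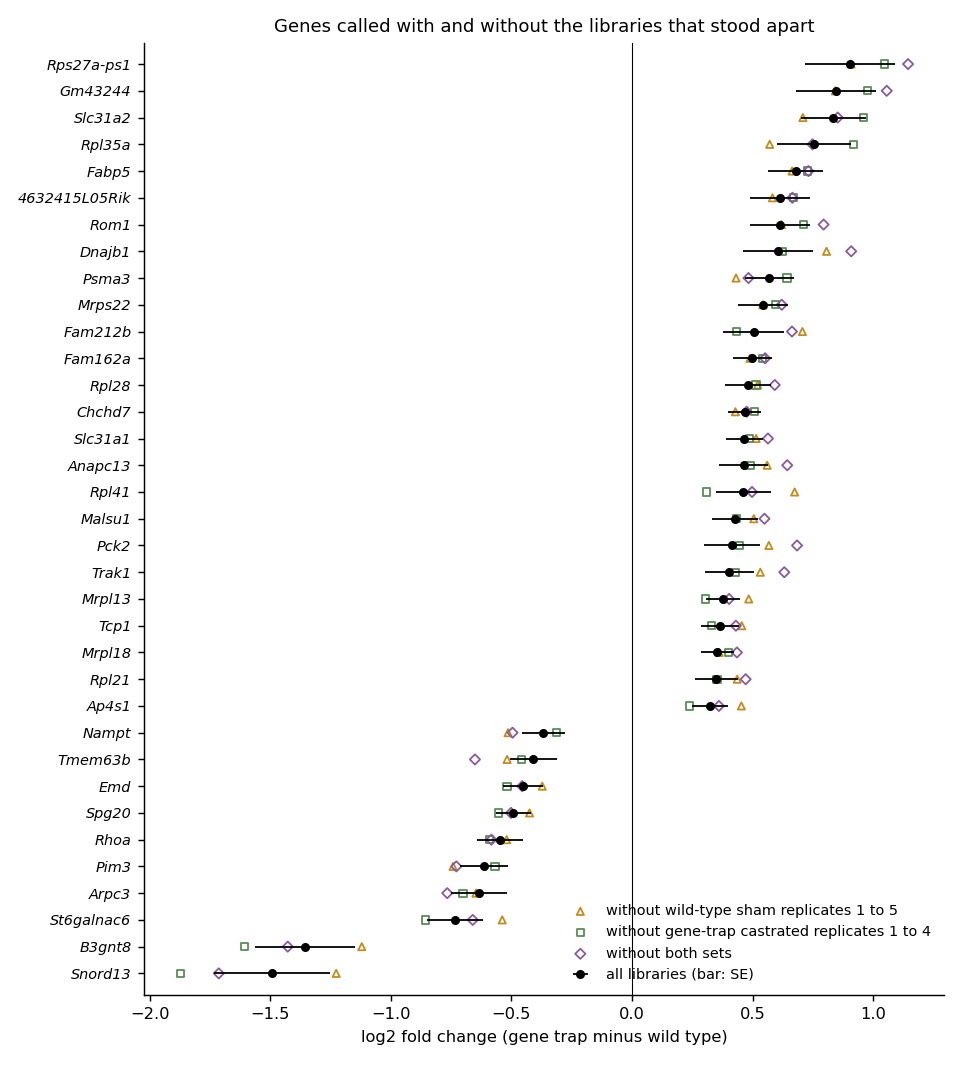
Log2 fold change (gene trap minus wild type) of the 35 genes called with all libraries (black, bar gives the SE) and without wild-type sham replicates 1 to 5, without gene-trap castrated replicates 1 to 4, or without both sets. Rps27a-ps1 at 0.90 and Snord13 at -1.49 lie at the ends, and each gene keeps its sign in all 4 fits, as the choice of the genes requires.

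The calls also differed in base composition. The last 400 nt of transcripts had a median GC content of 44.9% among the genes that rose and 50.9% among those that fell, against 46.5% over all genes tested. Among genes with 55% to 60% GC, 0.61% rose and 7.63% fell, and at 40% to 45% GC 4.12% rose and 2.39% fell. Across genes, which share libraries and are no independent replicates, the Pearson correlation of GC content with the log2 fold change was -0.211 for the genotype term, -0.435 in sham and 0.23 in castrated libraries. The slope of log2 level on GC content was 0.187 to 0.430 per 10 points in wild-type sham replicates 1 to 5 and -0.264 to 0.258 in all other libraries. After each library's trend on GC content was removed, 1039 genes were called (8.48%; 3.58% higher and 4.9% lower), 799 of them among the 896. The ribosomal protein list then held 33 higher and 1 lower of 78, and the mitochondrial one 15 higher of 78.

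**Figure D5:**
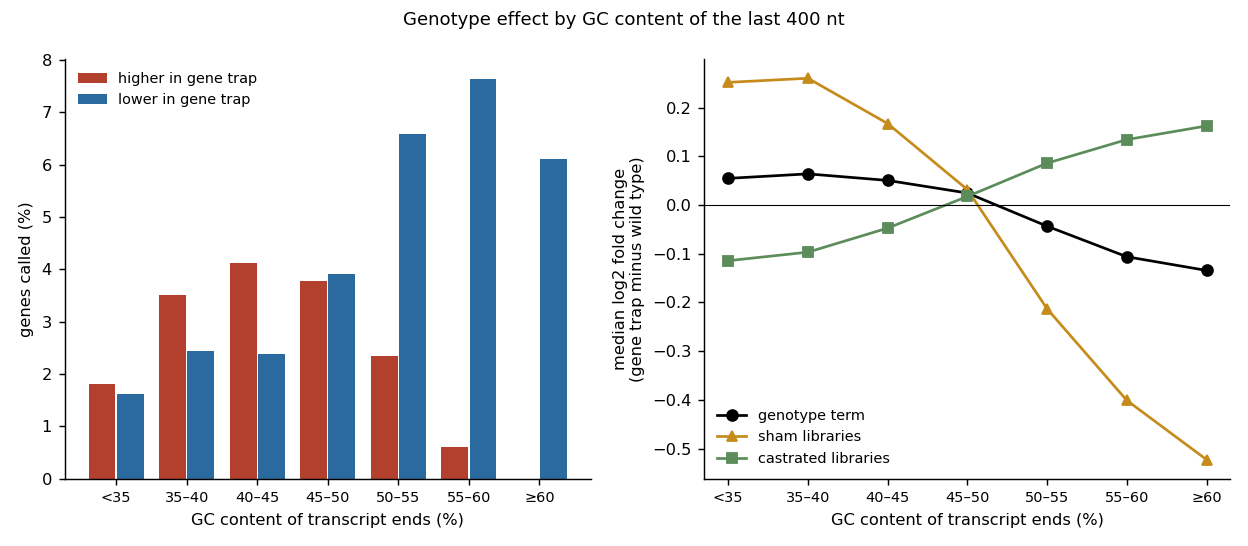
Left, share of genes called higher or lower in gene-trap ventricles by GC content of the last 400 nt of their transcripts. Right, median log2 fold change for the genotype term, in sham and in castrated libraries: over GC content the sham line falls from 0.25 to -0.52, the castrated line climbs from -0.11 to 0.16, and the genotype term lies between them.

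An additive term averages genes whose effects are unlike. The genotype by surgery interaction was called for 2469 genes (20.1%), of which 2253 had opposite signs in the surgeries and 2344 were not called for the genotype term. Without gene-trap castrated replicates 1 to 4, which leaves 3 libraries in that group, 0 genes were called for the interaction by edgeR. In that fit 1718 genes had an unadjusted p under 0.05. Without wild-type sham replicates 1 to 5, replicate 6 alone remains in that group, so fits without that set cannot settle the interaction. The 6 genes with the smallest interaction p show what the average hides. The RNA-binding protein gene Rbm27 was at 28.4 to 42.6 CPM in gene-trap sham and 15.5 to 22.8 CPM in wild-type sham ventricles. In castrated mice it was at 21.9 to 39.1 CPM in gene-trap and 28.2 to 39.0 CPM in wild-type ventricles. Its effect was 0.90 in sham and -0.26 in castrated libraries (interaction, edgeR adjusted p = 0.00269), and the genotype term was 0.27 (adjusted p = 0.259).

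The other 5 showed the same kind of crossing. Pkn2, a serine/threonine kinase gene, had log2 fold changes of 0.82 in sham and -0.17 in castrated libraries, the zinc finger gene Zfp131 of 0.94 and -0.38, and the cyclin D-binding factor gene Dmtf1 of 0.94 and -0.49. Tbl3, a factor in ribosome assembly, had -0.80 in sham and 0.62 in castrated libraries, and Zfp385a -1.64 and 0.78. None of these 6 was called for the genotype term by edgeR. At the edge of the threshold, Hist1h2bc (0.30), Rpl13a (0.36) and St6galnac4 (-0.38) passed with an edgeR adjusted p of 0.0498 to 0.0499, and Mapre1 (-0.31), Twistnb (0.33) and Kcnj5 (0.31) missed it with 0.05001 to 0.05004.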

How the data were processed

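Left ventricle was profiled in 26 libraries of 3′ end tags. The deposited tables hold raw counts per gene, 1 table per surgery; per the submitters' processing notes, CASAVA 1.4, FastQC, STAR, featureCounts 1.6.0 and DESeq2 1.22.2 were used with mm10 and GRCm38, and no source used here gives the strand setting. The same deposited tables carry the authors' mean signal, log2 fold change, test score and p-value columns, which were not used here.

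The tables were joined on gene identifiers, and rows that name no gene or have no counts were dropped. Counts were filtered and scaled (TMM) and tested with edgeR 4.0.16 (quasi-likelihood, robust) in R 4.3.3, with Benjamini-Hochberg adjustment over all tested genes and a threshold of 0.05; the scripts were tested on simulated data. A separate fit of the 4 groups gave the interaction and the effect in each surgery. Alternatives used DESeq2 1.42.0, limma 3.58.1 (voom with sample weights), other filters and scalings, and left-out libraries. For a gene at 0, up to 3 counts are possible by counting error alone. No 2 libraries of a group agreed within counting noise. The replicate numbers showed no pairing of whole profiles: of 12 same-numbered pairs, 1 correlated over 0.1. A weaker pairing could be missed by that check.

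Named genes are the 12 called genes of smallest p in each direction that have a symbol other than a predicted or Riken name, up to 4 members per gene list, the Y genes with their X homologues, 6 interaction genes and genes without overlap; others are said to be chosen after their values were seen or complete a list's count. The genes and lists were chosen with earlier results of these data known. Some genes that these rules name are not reported here.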

Additional observations from a re-analysis of the deposited data

Results flagged for a closer look

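In 50 of 416 groups of libraries checked, 1 library lay far from the rest of its group by Dixon's test, and chance alone flags about 1 in 20 groups. In wild-type castrated replicate 2 the distant CPM values were 135.5 for Chchd7, 91.73 for Aurkaip1, 212.8 for Fam162a, 17.56 for Slc31a2, 235.7 for Mrpl51, 209.5 for Slirp, 86.4 for Mphosph8, 170.3 for Mrpl18, 19.76 for Mrps22, 170.6 for Rpl28, 52.06 for Mtor, 112.9 for Psma4 and 279.6 for Anapc13. In wild-type castrated replicate 5 the distant CPM values were 14.49 for B3gnt8, 103.3 for Chtf8, 406.4 for Akt2, 1188 for Ptrf, 195.4 for Sae1, 388.5 for Acads, 8372 for Fabp3, 934.7 for Pygb, 69.41 for Eif2b5, 3066 for Hspb8, 259.8 for Jph2, 178.2 for Psmd13 and 159.4 for Egfl7. In wild-type sham replicate 4 the distant CPM values were 26.59 for Fabp5, 67.33 for Psmd6, 26.01 for Arrdc3, 873.7 for Hspb7 and 206.5 for Pecam1. In wild-type sham replicate 5 the distant CPM values were 32.84 for Slc31a1, 188.4 for Fam162a and 164.6 for Mrpl18. In gene-trap castrated replicate 4 the distant CPM values were 24.27 for Mlst8 and 96.59 for Egfl7. In wild-type sham replicate 6 the distant CPM values were 96.25 for Tmem63b and 9.779 for Cdc26. In gene-trap sham replicate 3 the distant CPM values were 98.23 for Dnajb1 and 11.58 for Fam212b. In wild-type sham replicate 1 the distant CPM value was 10.37 for Uty. In gene-trap castrated replicate 2 the distant CPM value was 12.86 for Eif2s3y. In gene-trap sham replicate 1 the distant CPM value was 11.75 for Tbl3. In wild-type sham replicate 3 the distant CPM value was 10.94 for Zfp385a. In gene-trap castrated replicate 7 the distant CPM value was 385.1 for Slc2a4. In gene-trap castrated replicate 5 the distant CPM value was 16.42 for Hspa1b. In gene-trap sham replicate 7 the distant CPM value was 145.5 for Fhl1. In gene-trap castrated replicate 3 the distant CPM value was 18.25 for Nppb. In wild-type castrated replicate 4 the distant CPM value was 98.14 for Nppb. In gene-trap sham replicate 5 the distant CPM value was 140.6 for Rhoa. 

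Among the named genes alone, the genotype effect of 16 differed between the surgeries by the interaction term (edgeR, adjusted p under 0.05). Of all genes tested 2469 (20.1%) did so, and 6 of the 16 were named for having the smallest interaction p. The castrated minus sham difference of the log2 fold changes was -0.3988 for Clcn4, -0.4767 for Psmd6, -1.158 for Rbm27, 1.421 for Tbl3, -1.315 for Zfp131, 2.417 for Zfp385a, -0.9925 for Pkn2, -1.425 for Dmtf1, -0.5197 for Txnrd3, 0.9043 for Acads, -0.7594 for Uqcrfs1, 0.7331 for Hspb7, -0.6849 for Psma4, 1.025 for Psmd13, 0.4133 for Ap4s1 and 0.5794 for Rpl41. None of these interactions was called without gene-trap castrated replicates 1 to 4, a fit that keeps 3 libraries of that group.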

How the results depend on the processing

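With all libraries 896 genes were called. The count was 1853 with limma voom, 244 at a threshold of 0.01, 360 with an absolute log2 fold change of at least 0.5, 1464 with the first within-group component as covariate and 1463 as the average of 4 group means. It was 3038 without gene-trap castrated replicates 1 to 4, 178 without wild-type sham replicates 1 to 5, 158 without both sets (chosen after seeing the data), 3026 in sham libraries alone and 20 in castrated libraries alone. It was 632 to 1135 without single libraries. With the replicate number as a block the count was 684 when numbers were shared over groups and 224 within surgery. The numbers showed no pairing of whole profiles, and a weaker pairing could be missed. For the interaction the count was 2469 with all libraries, 3975 with limma voom, 517 at 0.01, 1275 with the GC trend removed and 1623 to 3666 without single libraries, with 1623 without wild-type sham replicate 4 and 1642 without gene-trap castrated replicate 4. By edgeR it was 0 with the covariate (1568 at an unadjusted p under 0.05) and without gene-trap castrated replicates 1 to 4. Fits without wild-type sham replicates 1 to 5 keep replicate 6 alone in that group, and no interaction count is given for them. Genes without overlap numbered 1 with all libraries, 5 without scaling and 1 to 13 without single libraries. The sign was opposite with the covariate for Tbl3 (0.11), Cdc26 (-0.073) and Fkbp15 (0.039). With the GC trend removed it was opposite for Tbl3 (0.038). The sign was opposite without wild-type sham replicates 1 to 5 for Tbl3 (0.44), Dmtf1 (-0.29), Zfp385a (0.19), Zfp131 (-0.16), Rbm27 (-0.099), Cdc26 (-0.35), Fkbp15 (0.16) and Kdm5c (-0.00692). Without both sets of libraries it was opposite for Tbl3 (0.15), Dmtf1 (-0.087), Cdc26 (-0.16), Fkbp15 (0.16) and Kdm5c (-0.000901). In castrated libraries alone it was opposite for Tbl3 (0.62), Dmtf1 (-0.48), Zfp385a (0.78), Zfp131 (-0.37), Rbm27 (-0.25), Cdc26 (-0.30), Pkn2 (-0.17), Fkbp15 (0.20) and Kdm5c (-0.000672). Without gene-trap castrated replicates 1 to 4 it was opposite for Eif2s3x (0.0082). In sham libraries alone it was opposite for Eif2s3x (0.086) and Kdm6a (0.038). With limma voom it was opposite for Fkbp15 (0.014). Tbl3 lay at -0.14 to 0.021 without single libraries. The cause of these changes was not tested. Depth limits genes near 0.481 CPM, the level that a count of 0 allows in the shallowest library.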
